A study of Mus musculus with 26 samples.

Results

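The genes of synaptic vesicle release were followed through RNA-seq of striatum from mouse models of Huntington's disease. They were taken by symbol alone: the numbered synaptotagmins, syntaxins, syntaxin-binding proteins, VAMPs and complexins, Sv2a to Sv2c, the synapsins Syn1 to Syn3, Rab3a to Rab3d, Snap25, Syp and Unc13a. This gave 58 genes of the 14833 listed in any of 5 deposited tables. RefSeq holds 64 protein-coding mouse symbols that meet the same rule, and Cplx4, Stx11, Stx19, Syt8, Vamp7 and Vamp9 are the 6 of these with no row. The tables list 58, 57, 57, 57 and 56 of the members. Syt15 is listed at 4 weeks only, at 0.387 and 0.470 FPKM, and Syt14 has no row in the Elk-1 table.

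Neurons release transmitter when a vesicle fuses with the plasma membrane of the nerve terminal. Fusion is driven by SNARE proteins that zip together, synaptobrevin (Vamp1 or Vamp2) on the vesicle with syntaxin 1 (Stx1a) and Snap25 on the plasma membrane, after Unc13a has primed the vesicle. Complexins hold and promote the assembled complex, synaptotagmins sense the calcium that triggers fusion, and SV2 proteins, synaptophysin, synapsins and Rab3 belong to the vesicle itself. Most neurons of the striatum are GABA-releasing spiny projection neurons. The striatum also receives dense excitatory input from cortex and thalamus, but the messenger RNA for the proteins of those terminals lies mostly in cell bodies outside it.

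The 26 libraries form 9 groups of 2 to 4. R6/1 mice, which carry a transgene with the first exon of human mutant huntingtin under its own promoter, were compared with wild-type mice at 4 weeks and at 8 weeks, with 3 libraries in each group. CHL2, knock-in mice with an expanded repeat in the mouse huntingtin gene, were compared with wild type at 1 year, with 3 libraries each. At 10 weeks, striatum given a control adeno-associated virus (AAV), named in the tables for the fluorescent protein mCherry, was compared between R6/1 and wild type, with 2 libraries each. The fifth comparison set 4 libraries of R6/1 striatum given an AAV for the transcription factor Elk-1, named in the table as wild-type Elk-1, against the same 2 control-AAV R6/1 libraries. The strain background, sex, AAV serotype and site and age of injection are not stated in the labels. Nothing states that the libraries of a group came from separate animals, so the spread behind the deposited tests may be technical.

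Levels are FPKM, fragment counts scaled to transcript length and library size, and each table holds 1 pooled value per group. No value per library was analysed here, so no SD can be given. A member is called where the authors' deposited Cuffdiff q-value, a p-value adjusted over the whole table, is below 0.05. Only such members are said to rise or fall. Differences printed as log2 fold changes are the authors', and medians over members are of the change in log2(FPKM + 1). Each table was scaled separately, so levels of different tables are placed side by side without a test.

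Markers of the labelled tissue were detected, but so were those of other regions. All 9 marker lists had genes with a row in every table, so detection alone does not identify the tissue. No listed marker had a value at 0, but some markers had no row and are not counted there. At 4 weeks 12 of 13 thalamic, hypothalamic and pallidal markers were listed, and under the control AAV 5 of 6 endothelial markers. All 12 spiny projection neuron markers, such as Drd1a, Adora2a and Ppp1r1b, were listed in every table. The summed level of these markers went from 2759 FPKM in wild type to 2188 in R6/1 at 4 weeks (2 of 12 called lower), from 3107 to 1272 at 8 weeks (11 of 12), from 2950 to 1578 in CHL2 (11 of 12), and from 2433 to 1174 under the control AAV (9 of 12). Groups also differed in markers of other regions and cell types. Cortical excitatory markers summed to 379 FPKM in 8-week wild type and 247 in R6/1, with 5 of 8 called lower, and to 753 and 391 under the control AAV, again with 5 of 8 called lower. In CHL2 the same list held 238 and 253 FPKM and none was called, with 3 at an unadjusted p below 0.05. Thalamic, hypothalamic and pallidal markers summed to 113 FPKM in control-AAV wild type and 488 in control-AAV R6/1, with 10 of 12 called higher, and went from 499.7 to 78.8 under Elk-1 AAV, with 7 of 12 called lower. At 4 weeks the same markers summed to 178 FPKM in wild type and 100.2 in R6/1, with 4 of 12 called lower. Choroid plexus markers summed to 1516 and 588 FPKM at 8 weeks, with 6 of 7 called lower, and to 346 and 1585 under the control AAV, with 4 called higher. Oligodendrocyte markers summed to 4617 FPKM in 1-year wild type and 3133 in CHL2, with 4 of 8 called lower. The part of these markers in the results on release genes was not tested, and in whole tissue fewer cells of a type and less RNA per cell cannot be told apart.

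**Figure D1:**
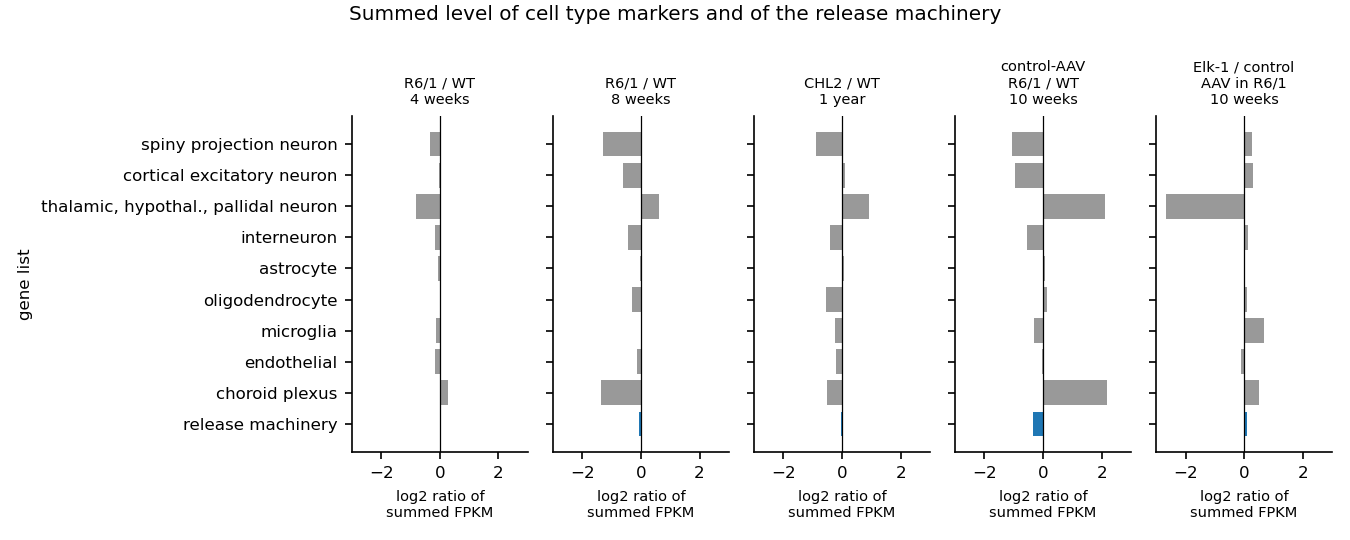
Log2 ratio of summed FPKM for each cell type marker list (grey bars) and for the release machinery (blue bars) in the 5 comparisons, with the second-named group as the reference. Spiny projection neuron markers lie well below 0 in 3 genotype comparisons, while the summed release machinery stays between -0.34 and 0.10 in all 5.

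Most release genes were present at 10 FPKM or more in wild-type striatum. In 8-week wild type, 13 of 57 members stood at 100 FPKM or more, 34 between 10 and 100, 10 between 1 and 10, and 0 below 1. The 10 highest members, among them Snap25, Vamp2, Syp, Cplx2 and Syt1, together held 3879.7 of the 5544 FPKM summed over members, or 70.0%. The order was led by Snap25 at 955 FPKM, followed by Vamp2 at 527 and Syp at 434. Among paralogs in the same group, Vamp2 stood at 527 FPKM against 42.2 for Vamp1, Sv2a at 145 against 81.8 for Sv2b and 21.7 for Sv2c, and Cplx2 at 397 against 4.72 for Cplx3. With pooled values the spread around neighbouring ranks is unknown, so this order is a description.

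**Figure D2:**
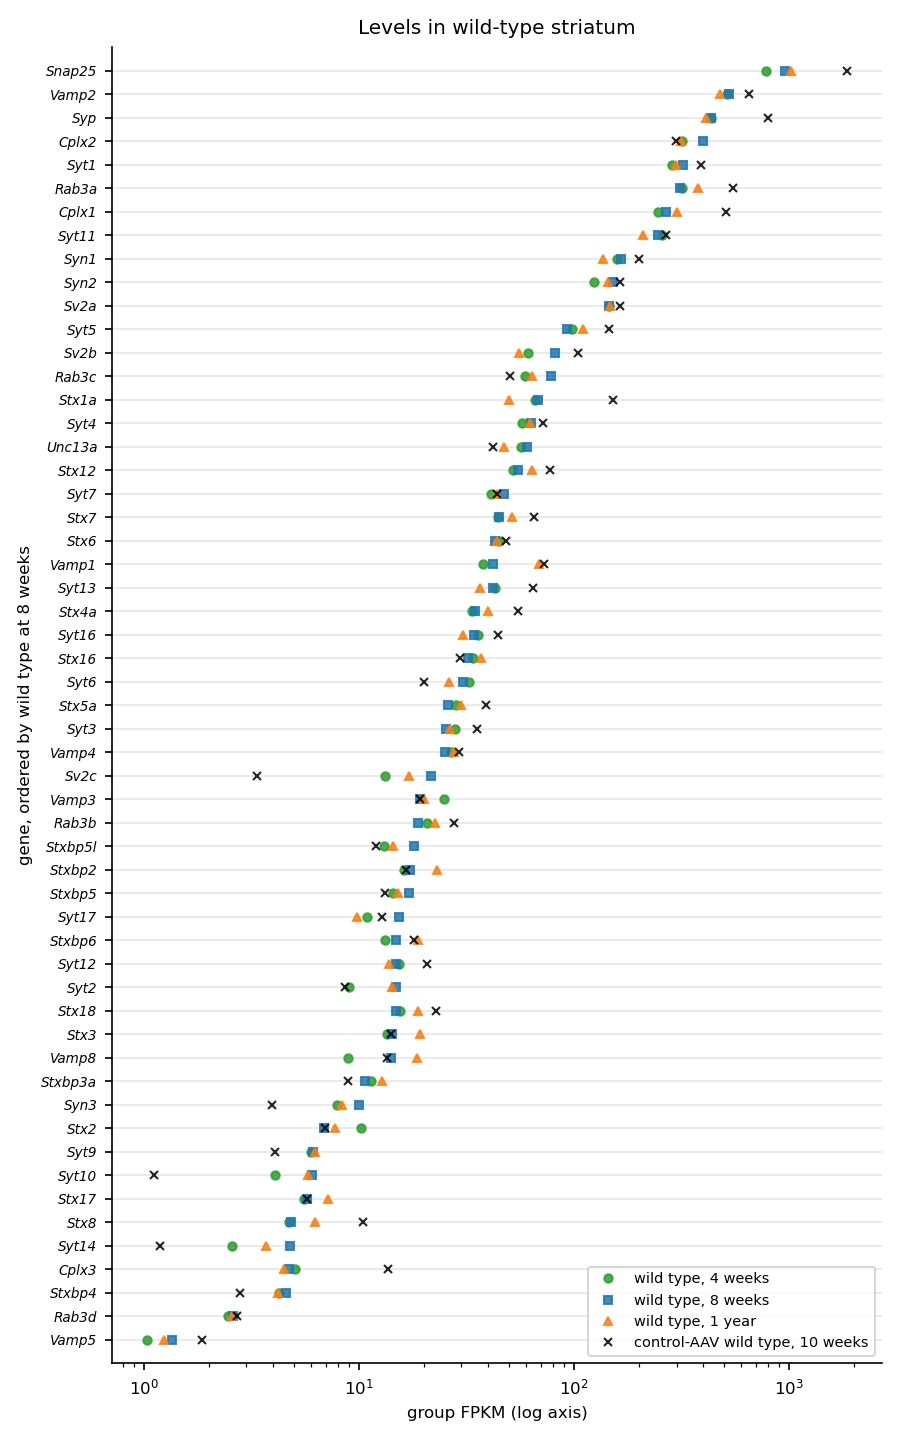
FPKM of single members (log axis) in the 4 wild-type groups, ordered by the 8-week value. The 3 groups without AAV lie close together for most genes, and the control-AAV values (crosses) depart on both sides, with Cplx3 and Stx1a above and Sv2c, Syt10 and Syt14 below.

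Levels in the control-AAV table stood apart from the other tables. Control-AAV wild-type striatum held 13.7 FPKM of Cplx3, against 4.49 to 5.06 in the 3 wild-type groups without AAV, and 151 of Stx1a, against 49.9 to 68.4. Sv2c, the SV2 form of basal ganglia, went the other way, at 3.34 FPKM against 13.2 to 21.7. The difference between control-AAV and 8-week wild type was related to transcript length across genes, with a Spearman correlation of -0.46 over 56 members and -0.65 over 12739 genes, and these genes share the same libraries and are not independent. For that reason the comparisons below stay within tables.

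Members were called in 3 of the 5 comparisons. At 4 weeks the authors' deposited table called 0 of 58 members by Cuffdiff, with 6 at an unadjusted p below 0.05, and called 0.468% of all its genes. At 8 weeks the deposited table called 6 of 57 members (10.5%), 5 lower and 1 higher, beside 6.12% of all genes, 5.34% lower and 0.789% higher. In CHL2 it called 5 of 57 (8.77%), 4 lower and 1 higher, beside 3.65% of all genes, 1.97% lower and 1.67% higher. Under the control AAV it called 7 of 57 (12.3%), all lower, beside 3.24% of all genes and 2.51% lower. With Elk-1 AAV it called 0 of 56 by Cuffdiff, with 4 at an unadjusted p below 0.05, beside 0.575% of all genes. The shares among members at 8 weeks, in CHL2 and under the control AAV rest on 5 to 7 genes each, and no test compared them with the background. In CHL2 the count was 1 at a q below 0.01 and 2 with an absolute log2 fold change of at least 0.5.

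The middle of the list moved little. Members had a median change of 0.03 at 4 weeks, -0.09 at 8 weeks, 0.06 in CHL2, -0.12 under the control AAV and 0.06 with Elk-1 AAV, where the medians over all genes lay between 0.00 and 0.01. Values were lower in the model for 39 of 57 members (68.4%) at 8 weeks and 45 of 57 (78.9%) under the control AAV, against 48.6% and 47.6% of all genes. At 4 weeks 21 of 58 (36.2%), in CHL2 26 of 57 (45.6%) and with Elk-1 AAV 16 of 56 (28.6%) were lower, against 49.5%, 49.5% and 47.2% of all genes. Counted as summed FPKM, which the most abundant members dominate, the log2 ratio was -0.34 under the control AAV, 0.10 with Elk-1 AAV and -0.02 in CHL2, where the median is of opposite sign. The CHL2 median was also smaller, 0.01, among members with a mean FPKM of at least 5, and 0.02 after centring within classes of transcript length. Under the control AAV the change had a Spearman correlation with transcript length of -0.29 over 56 members and -0.06 over all genes. In CHL2 the same correlations were 0.20 and 0.39.

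**Figure D3:**
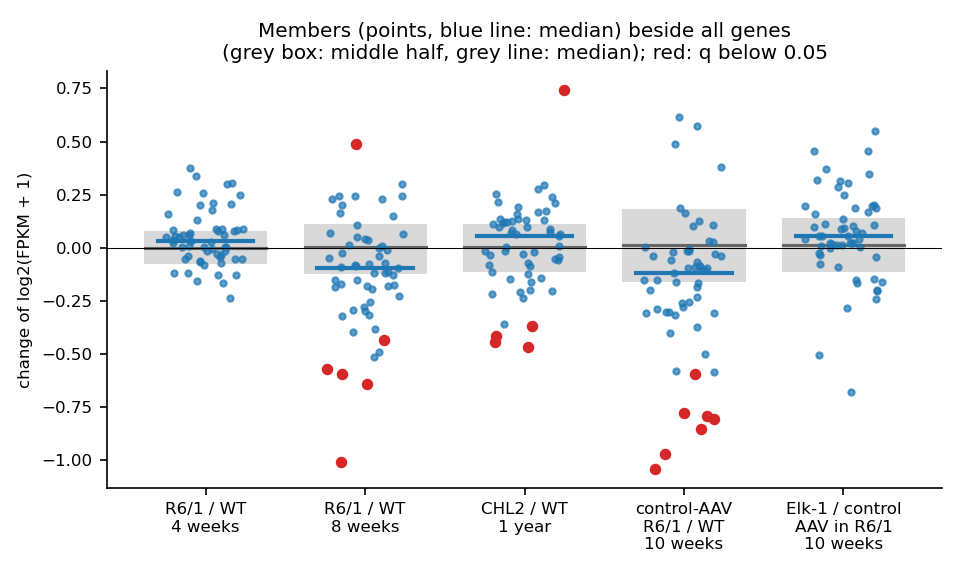
Change of log2(FPKM + 1) for each member (points, red where the deposited q is below 0.05, blue line at the median) beside the middle 50% of all genes (grey box) in each comparison. The 8-week and control-AAV members are spread towards lower values, with lowest changes of -1.01 and -1.04, and the 4-week members lie between -0.24 and 0.38.

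Of the 58 members, 47 were called in no table and 11 in at least 1. Cplx3 and Syt12 fell in the 3 later genotype comparisons, at 8 weeks, in CHL2 and under the control AAV. Sv2b, Syt2 and Syt6 fell in 2 of them, and Snap25, Stx1a, Syt1, Syt17, Unc13a and Vamp1 were called in 1. Of all genes, 6.12% were called at 8 weeks, 3.65% in CHL2 and 3.24% under the control AAV. How many of all genes were called in more than 1 table was not counted, so such recurrence is no result about the members. Over those 3 comparisons, 18 of 57 members had lower values in all 3 (31.6%, beside 19.3% of 12867 genes) and 4 had higher values in all 3 (7.02%, beside 21.5%), namely Stx16, Stx2, Sv2a and Vamp4. The 18 comprise Cplx2, Cplx3, Rab3b, Snap25, Stx1a, Stx3, Stx4a, Stx6, Stx8, Stxbp3a, Sv2c, Syt12, Syt16, Syt2, Syt5, Syt6, Vamp2 and Vamp3. Across members, the changes at 8 weeks and under the control AAV had a Spearman correlation of 0.38, against 0.38 over all genes, and those at 8 weeks and in CHL2 one of 0.28 against 0.34. Points from 1 table share its libraries, so these are descriptions.

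**Figure D4:**
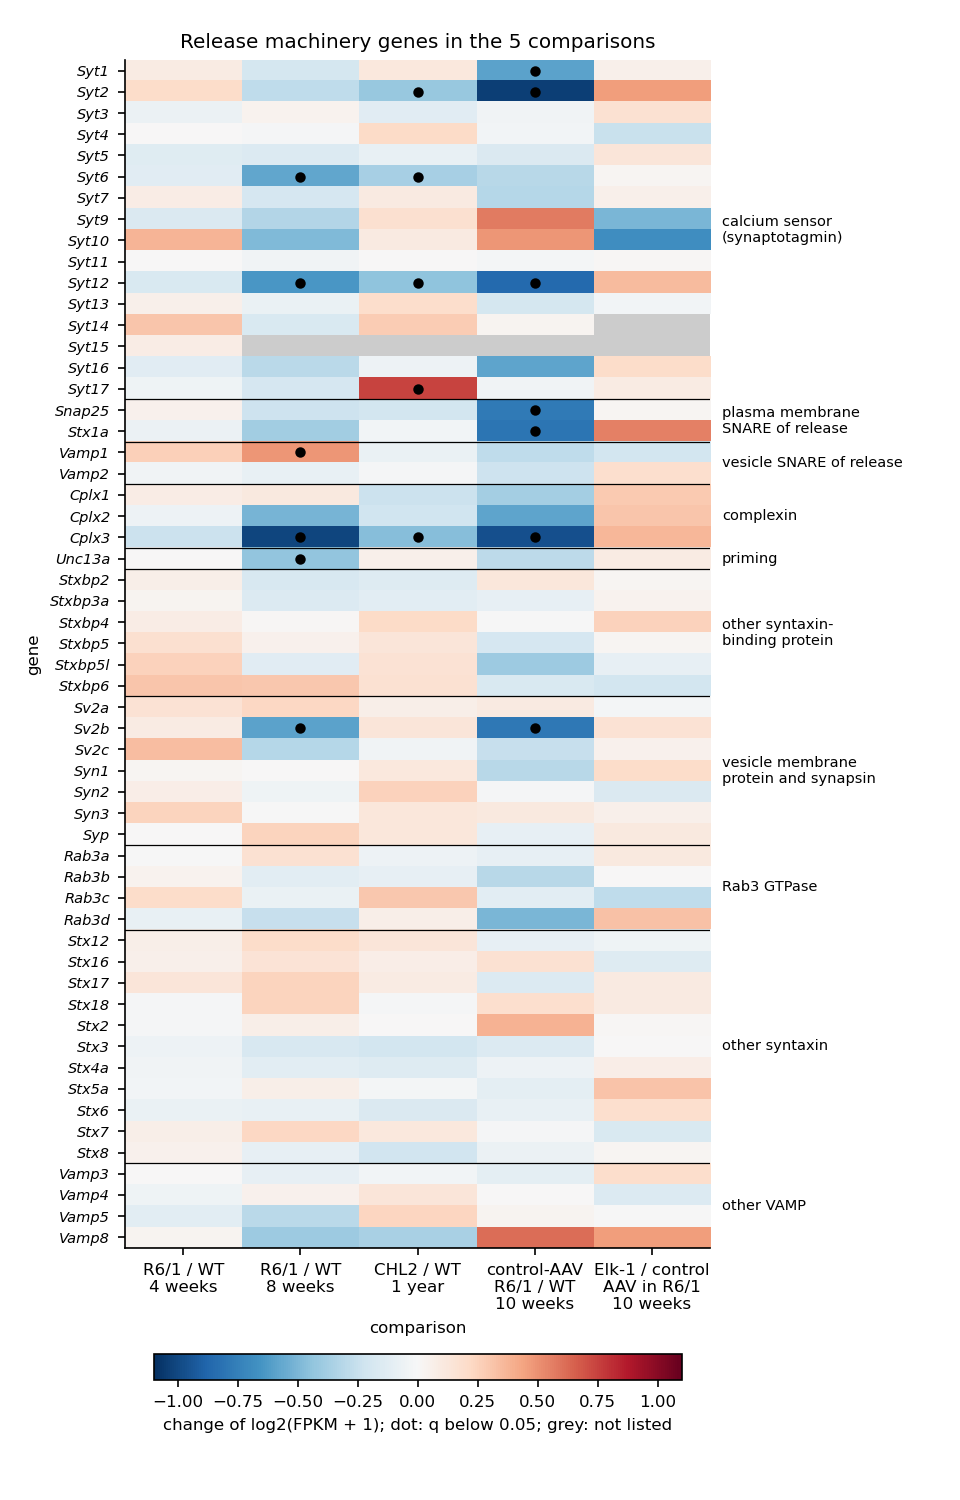
Change of log2(FPKM + 1) for 56 of the 58 members, grouped by role, in the 5 comparisons, with a dot where the deposited q is below 0.05 and grey where the gene has no row. Blue cells are lower in the first-named group, and the dots gather in synaptotagmins and in the 8-week, CHL2 and control-AAV columns.

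The plasma membrane SNAREs Snap25 and Stx1a fell under the control AAV and were called in no other comparison, and a difference between comparisons was not tested. Snap25 (chromosome 2, 136539185 to 136608164 on the mm9 build) had 781 FPKM in wild type and 809 in R6/1 at 4 weeks, 955 and 816 at 8 weeks, and 1022 and 888 in wild type and CHL2. With the control AAV Snap25 fell from 1859 to 1084 FPKM (a log2 fold change of -0.78 with q = 0.0235 in the authors' deposited table). Snap25 is the most abundant member, and the sum over all members in the same 2 groups was 7659.9 and 6043 FPKM. Stx1a (chromosome 5, 135499441 to 135526969) fell from 151 to 86.05 FPKM under the control AAV (a log2 fold change of -0.81 with q = 0.00548 in the authors' deposited table). At 8 weeks Stx1a had 68.4 FPKM in wild type and 52.3 in R6/1, which the authors' deposited table places just outside the threshold (q = 0.056), and in CHL2 its values were 49.9 and 48.8.

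Vamp1 was the only member that rose in R6/1 at any age. This vesicle SNARE is known from fast-firing neurons, while Vamp2 is the general form of the forebrain. Vamp1 (chromosome 6, 125165598 to 125172324 on mm9) rose from 42.2 to 59.5 FPKM at 8 weeks (a log2 fold change of 0.50 with q = 0.0016 in the authors' deposited table). At 4 weeks it had 37.8 FPKM in wild type and 45.6 in R6/1 (q = 0.561 in the authors' deposited table). The older and AAV groups lay the other way without a call, at 68.95 and 65.6 FPKM for wild type and CHL2 and 72.8 and 59.8 under the control AAV. In the 8-week table thalamic, hypothalamic and pallidal markers summed to 55.7 FPKM in wild type and 85.3 in R6/1, with 3 of 13 called higher. In CHL2, where the Vamp1 value was lower, these markers summed to 135 and 255 FPKM, with 8 of 13 called higher. Under the control AAV, where it was also lower, they summed to 113 and 488 FPKM, with 10 of 12 called higher. At 4 weeks they summed to 178 FPKM in wild type and 100.2 in R6/1. The part of these markers in the Vamp1 rise was not tested. Vamp2 was called in no table, with 527 and 498 FPKM at 8 weeks, 477 and 472 in CHL2 and 649.9 and 554 under the control AAV.

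Of the complexins only Cplx3 was called, and the 3 were not tested against each other. Cplx3, best known from retinal ribbon synapses and from neurons at the base of the cortex, was the least abundant of the 3 and fell in 3 comparisons. Cplx3 (chromosome 9, 57447798 to 57454088 on mm9) fell from 4.72 to 1.85 FPKM at 8 weeks, the largest fall of any member there (a log2 fold change of -1.35 with q = 0.0016 in the authors' deposited table). In CHL2 it fell from 4.49 to 2.98 FPKM (a log2 fold change of -0.59 with q = 0.0409 in the authors' deposited table). In control-AAV striatum it fell from 13.7 to 6.51 FPKM (a log2 fold change of -1.07 with q = 0.00312 in the authors' deposited table). At 4 weeks the values were 5.06 FPKM in wild type and 4.14 in R6/1, without a call (q = 0.973 in the authors' deposited table). With Elk-1 AAV, Cplx3 had 8.90 FPKM against 6.67 in the control-AAV R6/1 group (q = 0.999 in the authors' deposited table).

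The 2 abundant complexins of the forebrain were called nowhere. Cplx2 had 397 FPKM in wild type and 277 in R6/1 at 8 weeks, a log2 fold change of -0.52 in the authors' deposited table with q = 0.22. Cplx2 had 297 and 199 FPKM under the control AAV, with q = 0.065 in the authors' deposited table. Cplx1, which is typical of inhibitory neurons, had 269 and 290.2 FPKM at 8 weeks, 299.9 and 255 in CHL2 and 509 and 393 under the control AAV.

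The Cplx3 and Vamp1 promoters and that of Syt6, a synaptotagmin described further on, are shown because these genes were called at 8 weeks with opposite signs. RefSeq gave windows for 45 of the 58 members on its GRCm38.p6 build, a different build from the tables, and Syt12, Snap25 and Syt17 were among the 13 without one. Each line gives the 250 bases before the annotated start, 5′ to 3′ on the gene's strand, with a match to GGACAGC, the core of the REST repressor element, in capitals. The windows are chr9:57606282-57606531 (minus strand), chr3:103574995-103575244 (plus strand) and chr6:125215331-125215580 (plus strand).
Cplx3: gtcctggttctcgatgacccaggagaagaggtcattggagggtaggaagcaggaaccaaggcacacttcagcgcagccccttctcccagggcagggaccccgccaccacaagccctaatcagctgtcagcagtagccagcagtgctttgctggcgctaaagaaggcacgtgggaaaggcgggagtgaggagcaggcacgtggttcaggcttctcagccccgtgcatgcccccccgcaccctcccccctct
Syt6: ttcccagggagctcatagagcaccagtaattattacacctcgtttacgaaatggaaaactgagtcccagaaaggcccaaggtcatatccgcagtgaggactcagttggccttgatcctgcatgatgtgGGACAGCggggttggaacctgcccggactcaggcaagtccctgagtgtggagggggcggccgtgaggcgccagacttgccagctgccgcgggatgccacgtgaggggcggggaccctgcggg
Vamp1: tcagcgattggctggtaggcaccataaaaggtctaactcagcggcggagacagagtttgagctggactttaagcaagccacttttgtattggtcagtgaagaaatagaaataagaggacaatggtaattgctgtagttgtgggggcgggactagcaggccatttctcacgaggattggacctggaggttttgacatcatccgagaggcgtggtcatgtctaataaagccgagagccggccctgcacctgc

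Only the Syt6 sequence of these holds that motif, at position -122 from the start. Over the 59 promoter windows of 300 bases that belong to members, 5 held GGACAGC on either strand (8.47%), in Stx5a, Syt6 and Unc13a, beside 6.56% of 32851 windows of all genes. Syt6 alone supplies windows 1, 2 and 3 of its own to these 5. Its windows 1 and 2 overlap and hold the same site, at -122 and -159, so the share of windows overstates the share of genes. The cyclic AMP response element TGACGTCA was in 1 window (1.69%), that of Syn1, beside 1.79% of all. The ETS motif CCGGAAGT, which Elk-1 can bind, was in 0 of 59 windows beside 3.89% of all, and 2 forms of the CArG box of SRF, the partner of Elk-1, were in 0 windows beside 0.0731% and 0.0639%. Windows of 1 gene overlap in part, and no match says only that these letters are not in this stretch.

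The priming factor Unc13a fell at 8 weeks. Unc13a, which readies docked vesicles for fusion (chromosome 8, 74150611 to 74195656 on mm9), fell from 60.4 to 44.4 FPKM (a log2 fold change of -0.44 with q = 0.026 in the authors' deposited table). At 4 weeks it had 56.96 and 57.1 FPKM, in wild type and CHL2 47.2 and 49.1, and under the control AAV 42.2 and 34.3, with no call. Of the syntaxin-binding proteins with other roles, all 6 were called in no table. Among them Stxbp6 (amisyn) had 14.9 FPKM in wild type and 18.6 in R6/1 at 8 weeks, with q = 0.19 in the authors' deposited table, and 13.3 and 16.6 at 4 weeks. Stxbp5l, a tomosyn, which competes for SNARE partners, had 13.1 and 15.8 FPKM at 4 weeks and 12.03 and 8.88 under the control AAV.

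Synaptotagmins are the largest group of members and were called in 3 tables. At 8 weeks 2 of 15 fell and 14 of 15 had lower values (median change -0.18), beside 5.34% of all genes called lower and 48.6% with lower values. In CHL2 3 of 15 fell and 1 rose, beside 1.97% and 1.67% of all genes, and the median change over the family was 0.10. Under the control AAV 3 of 15 fell and 12 of 15 had lower values (median -0.16), beside 2.51% of all genes called lower and 47.6% with lower values.

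Syt12, a synaptotagmin whose fusion role does not depend on calcium binding, fell in the same 3 comparisons as Cplx3. It lies on chromosome 19, 4425456 to 4477143 on mm9. Syt12 fell from 14.9 to 9.20 FPKM at 8 weeks (a log2 fold change of -0.70 with q = 0.0016 in the authors' deposited table). In CHL2 it fell from 13.9 to 9.94 FPKM (a log2 fold change of -0.48 with q = 0.0163 in the authors' deposited table). In R6/1 with control AAV it fell from 20.8 to 11.1 FPKM (a log2 fold change of -0.91 with q = 0.00312 in the authors' deposited table). In the tables without AAV its row shares its listed position with Rhod, so some reads could belong to either gene, whereas the control-AAV row shares it with none. Cortical excitatory markers were lower in the model at 8 weeks and under the control AAV and summed to 238 and 253 FPKM in CHL2, and their part in the Syt12 and Cplx3 values was not tested. At 4 weeks Syt12 had 15.3 and 13.6 FPKM, and with Elk-1 AAV 14.7 against 11.4.

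Syt6 fell in R6/1 at 8 weeks and in CHL2. It belongs with Syt3 and Syt10 to one branch of the family. Syt6 (chromosome 3, 103379203 to 103439102 on mm9) fell from 30.4 to 20.1 FPKM at 8 weeks (a log2 fold change of -0.59 with q = 0.0016 in the authors' deposited table). In CHL2 it fell from 26.4 to 20.2 FPKM (a log2 fold change of -0.38 with q = 0.0275 in the authors' deposited table). It had 20.03 and 16.1 FPKM under the control AAV, with q = 0.685 in the authors' deposited table. Syt10 was near the threshold at 8 weeks, with 6.09 FPKM in wild type and 4.05 in R6/1 (q = 0.0998 in the authors' deposited table), but its values ran the other way under the control AAV, 1.12 and 1.96.

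Syt1 and Syt2 are fast calcium sensors of release, Syt1 the main one of the forebrain and Syt2 that of hindbrain and of some fast-spiking interneurons. Syt2 (chromosome 1, 136543257 to 136645994 on mm9) fell in CHL2 from 14.3 to 10.4 FPKM (a log2 fold change of -0.45 with q = 0.0262 in the authors' deposited table). Under the control AAV it fell from 8.64 to 3.69 FPKM, the largest fall of a member in that table (a log2 fold change of -1.23 with q = 0.00548 in the authors' deposited table). At 8 weeks Syt2 had 14.9 and 12.1 FPKM without a call (q = 0.255 in the authors' deposited table). Beside this, the 8 interneuron markers summed to 775 FPKM in wild type and 584 in CHL2, with 1 called lower, and to 1295 and 895 under the control AAV, with 2 called lower. At 8 weeks, where Syt2 was not called, they summed to 560.2 and 416 FPKM with 4 called lower, and their part was not tested. Syt1 (chromosome 10, 107934705 to 108448031) fell under the control AAV from 391 to 259 FPKM (a log2 fold change of -0.62 with q = 0.0434 in the authors' deposited table). Elsewhere Syt1 was not called, with 284 and 303 FPKM at 4 weeks, 322 and 281 at 8 weeks and 299 and 324 in wild type and CHL2. For Syt1 in CHL2 the authors' deposited table gives a log2 fold change of 0.00, which the ratio of those 2 pooled levels (0.12) does not match, and under the control AAV the ratio gives -0.59.

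Syt17, a family member that acts in membrane trafficking without sensing calcium, was the only member that rose in CHL2. Syt17 (chromosome 7, 125525369 to 125587066 on mm9) rose from 9.83 to 17.1 FPKM at 1 year (a log2 fold change of 0.80 with q = 0.00303 in the authors' deposited table). Syt17 was not called in the R6/1 comparisons, with 10.9 and 10.6 FPKM at 4 weeks, 15.3 and 13.4 at 8 weeks and 12.8 and 12.4 under the control AAV. The R6/1 and CHL2 changes were not tested against each other. In CHL2 the thalamic, hypothalamic and pallidal markers summed to 135 FPKM in wild type and 255 in CHL2, with 8 of 13 called higher. At 8 weeks, where Syt17 was not called, they summed to 55.7 and 85.3 FPKM, with 3 of 13 called higher. Under the control AAV, again without a Syt17 call, they summed to 113 and 488 FPKM, with 10 of 12 called higher. At 4 weeks they summed to 178 FPKM in wild type and 100.2 in R6/1. The part of these markers in the Syt17 rise was not tested.

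The other synaptotagmins were called in no table. Syt11, an abundant form that does not bind calcium, had 246 and 239.6 FPKM at 8 weeks and 267 and 263 under the control AAV. Syt7, the slow high-affinity sensor, had 47.1 and 41.4 FPKM at 8 weeks and 43.7 and 34.9 under the control AAV. Syt16 had 44.3 and 29.2 FPKM under the control AAV (q = 0.0914 in the authors' deposited table). Syt9, another fast sensor, had 6.10 and 4.68 FPKM at 8 weeks but 4.07 and 6.54 under the control AAV. Syt5, Syt4 and Syt14 also met the rule for naming through small differences. Syt5 had 97.7 and 89.2 FPKM at 4 weeks, Syt4 72.03 and 60.8 with Elk-1 AAV, and Syt14 2.58 and 3.42 at 4 weeks.

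Among vesicle membrane proteins Sv2b alone was called, in 2 tables. SV2 proteins are vesicle glycoproteins, of which Sv2a is found in nearly all neurons, Sv2b mainly in cortical and hippocampal excitatory neurons and Sv2c in the basal ganglia. Sv2b (chromosome 7, 82259780 to 82476305 on mm9) fell from 81.8 to 53.96 FPKM at 8 weeks (a log2 fold change of -0.60 with q = 0.0016 in the authors' deposited table). Under the control AAV it fell from 104 to 59.6 FPKM (a log2 fold change of -0.80 with q = 0.00312 in the authors' deposited table). In CHL2, where cortical markers were not called either, Sv2b had 55.6 FPKM in wild type and 61.1 in CHL2 (q = 0.73 in the authors' deposited table). Both tables in which Sv2b fell are those in which 5 of 8 cortical excitatory markers fell. Slc17a7, the vesicular glutamate transporter of cortex, is itself among these 8 and contributes much of their sum. Slc17a7 fell from 269 to 169 FPKM at 8 weeks (q = 0.0043 in the authors' deposited table) and from 469 to 249 under the control AAV (q = 0.00312). Whether the Sv2b values follow the cortical share of the tissue was not tested.

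Sv2c had higher values in R6/1 at 4 weeks and lower ones at 8 weeks, and neither was called. The values were 13.2 and 16.99 FPKM at 4 weeks, with the lowest q of any member there (0.205 in the authors' deposited table). At 8 weeks they were 21.7 and 17.2 FPKM, with q = 0.126 in the authors' deposited table. At 4 weeks longer transcripts tended to higher R6/1 values (Spearman correlation 0.45 over 56 members and 0.48 over all genes). The longest Sv2c transcript has 9101 bases, and the part of length in its values was not tested. Sv2a was called in no table and had higher values in the model in all 4 genotype comparisons, with 146 and 163 FPKM at 4 weeks, 145 and 171 at 8 weeks, 146 and 154 in CHL2 and 164 and 176 under the control AAV.

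Synaptophysin, the synapsins and Rab3, which mark vesicles of nearly every synapse or tether them before release, were called in no table. Syp had 434 and 435 FPKM at 4 weeks, 434 and 514 at 8 weeks, 411 and 448 in CHL2 and 799 and 749 under the control AAV. Syn1 had 165 and 166 FPKM at 8 weeks, 136 and 148 in CHL2 and 201 and 163 under the control AAV. Syn2 had 152 and 148 FPKM at 8 weeks and 145 and 173 in CHL2. These genes overlap others on the genome, Syn2 with Timp4, Syn3 with Timp3 and Syn1 with Araf, so their reads are less certain. Syn3, the scarcest synapsin, had 10.01 and 10.00 FPKM at 8 weeks. Rab3a, the main vesicle GTPase, had 313 and 350.5 FPKM at 8 weeks, 377 and 362 in CHL2 and 551 and 519 under the control AAV, and its row overlaps Mpv17l2. Rab3c had 63.8 FPKM in wild type and 78.6 in CHL2 (q = 0.217 in the authors' deposited table). Rab3d, the scarcest of the 4, had 2.72 and 1.63 FPKM under the control AAV (q = 0.495 in the authors' deposited table).

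Syntaxins and VAMPs outside the core release set, most of which serve membrane traffic in many cell types, made no call by Cuffdiff in any table, with 1 at an unadjusted p below 0.05 in CHL2 and 0 elsewhere. Log2 ratios of the 15 of them ranged from -0.55 to 0.28 at 8 weeks, from -0.38 to 0.41 in CHL2 and from -0.18 to 0.65 under the control AAV. Their median change was -0.02 at 4 weeks, 0.05 at 8 weeks, -0.01 in CHL2, -0.06 under the control AAV and 0.02 with Elk-1 AAV. The 20 genes of the core release set had medians of 0.09, -0.08, 0.06, -0.28 and 0.09 in the same order. Of these 20, 2 were called lower and 1 higher at 8 weeks, beside 5.34% and 0.789% of all genes. In CHL2 1 was called lower, beside 1.97% of all genes, and under the control AAV 5 were called lower, beside 2.51%. At 4 weeks and with Elk-1 AAV 0 of the 20 were called by Cuffdiff, with 2 at an unadjusted p below 0.05 in each. The 2 lists were not tested against each other, and at such shares of all genes 0 calls among 15 is no result about those genes. Vamp8, an endosomal SNARE, had the largest difference among these genes, 13.5 and 21.2 FPKM under the control AAV (q = 0.496 in the authors' deposited table). Vamp5 had 1.35 and 0.920 FPKM at 8 weeks, Stx17 5.76 and 7.0, Stx18 14.8 and 17.8, and Stx2 6.95 and 9.34 under the control AAV.

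**Figure D5:**
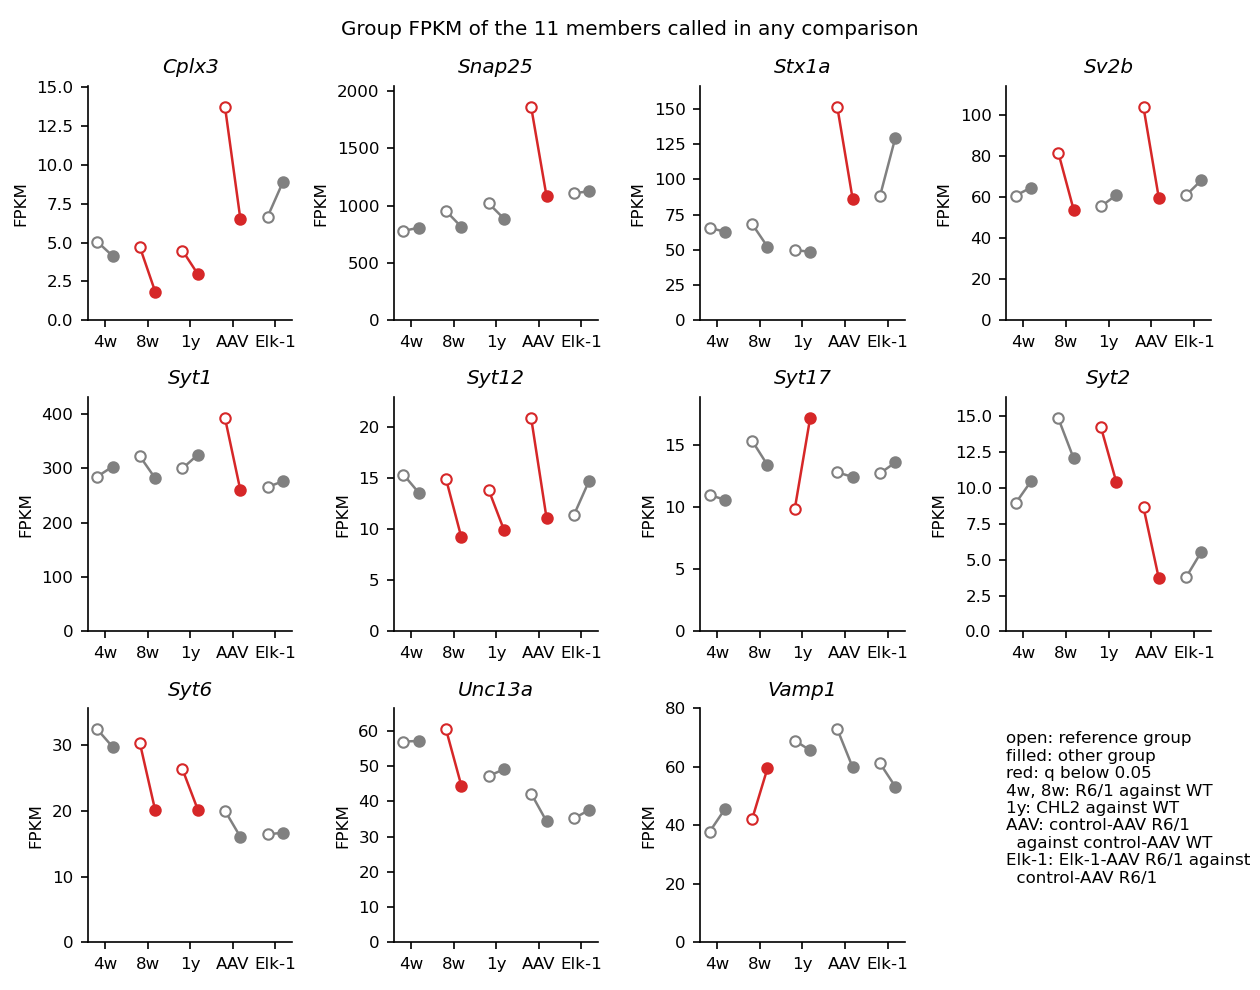
FPKM of the 11 members called in any comparison, with the reference group open and the other group filled, red where the deposited q is below 0.05. Cplx3 and Syt12 drop in red at 8 weeks, 1 year and under the control AAV, Vamp1 rises at 8 weeks and Syt17 at 1 year, and no Elk-1 pair is red.

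Genes that work beside the members were read from lists of active zone, vesicle and endocytosis genes. Of 34 active zone and priming genes, 1 fell at 8 weeks, 1 rose in CHL2 and 2 fell under the control AAV. With 6.12%, 3.65% and 3.24% of all genes called in these tables, such counts are no result about the list. Bsn, a scaffold of the active zone, fell from 40.4 to 28.3 FPKM at 8 weeks (a log2 fold change of -0.51 with q = 0.0214 in the authors' deposited table) and from 20.2 to 12.5 under the control AAV (-0.69, q = 0.0172). Rph3a, a Rab3 effector, fell from 125 to 78.4 FPKM under the control AAV (q = 0.00983 in the authors' deposited table). Cadps2, a priming factor for dense-core vesicles, rose from 13.8 to 19.3 FPKM in CHL2 (q = 0.00303 in the authors' deposited table). Of 20 endocytosis genes Cuffdiff called 0 in every table, with between 0 and 3 at an unadjusted p below 0.05.

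The vesicular glutamate transporters moved in different directions. Of 13 vesicle proteins and transporters outside the rule, 2 fell and 1 rose at 8 weeks, 1 rose in CHL2, 2 fell and 1 rose under the control AAV, and 1 of 12 fell with Elk-1 AAV. In the same order 6.12%, 3.65%, 3.24% and 0.575% of all genes were called, and no test compared the list with these shares. Slc17a6, the glutamate transporter of thalamus and hypothalamus, rose from 7.98 to 12.9 FPKM at 8 weeks (q = 0.0016 in the authors' deposited table), from 8.64 to 13.7 in CHL2 (q = 0.00303) and from 7.73 to 19.5 under the control AAV (q = 0.00312). It is itself one of the thalamic, hypothalamic and pallidal markers given above. Slc17a8, the form found in cholinergic interneurons, fell at 8 weeks from 3.58 to 2.24 FPKM (q = 0.0191 in the authors' deposited table). Synpr, a synaptophysin relative, fell under the control AAV from 83.4 to 53.6 FPKM (q = 0.0266 in the authors' deposited table).

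With Elk-1 AAV in R6/1 no member was called, and the lowest member q was that of Stx1a. Stx1a had 129.5 FPKM with Elk-1 AAV and 88.1 with the control AAV (a log2 fold change of 0.56 with q = 0.177 in the authors' deposited table). This comparison and the control-AAV genotype comparison share the 2 control-AAV R6/1 libraries, so a value that is off in them enters both with opposite sign, and only each comparison's own values are given. Of the 7 members that fell with genotype under the control AAV, from wild type to R6/1, Cplx3 had 6.67 FPKM with control AAV and 8.90 with Elk-1 AAV, Syt2 3.78 and 5.56, and Syt12 11.4 and 14.7. Besides Stx1a, the others had 61.02 and 68.4 FPKM for Sv2b, 265 and 276 for Syt1, and 1109 and 1127 for Snap25. The lowest ratios with Elk-1 AAV were those of Syt10, 2.01 and 0.879 FPKM, and Syt9, 6.70 and 4.42. In the same table Slc17a6 fell from 19.9 to 6.17 FPKM (a log2 fold change of -1.69 with q = 0.0122 in the authors' deposited table). It is 1 of the 7 thalamic, hypothalamic and pallidal markers of 12 that were called lower there, and the part of tissue makeup in these values was not tested.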

How the data were processed

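Total RNA from mouse striatum was sequenced after a TruSeq preparation, per the labels' protocols. Per the submitters' processing notes, TopHat, Bowtie, Cufflinks and Cuffdiff were used with the mm9 genome. No version, annotation or strand setting is given in the sources used here, so overlapping genes and paralogs such as the syntaxins may share reads. The authors deposited 5 tables with 1 pooled FPKM value per group and gene. They also hold the authors' deposited log2 fold change, p-value and q-value. Depth and counts per library are unknown, so no interval, SD or new test was computed, and 2 to 4 libraries per group limit the precision.

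From these values were computed the change of log2(FPKM + 1), with a pseudocount of 1, medians over genes whose mean FPKM reached 0.5, marker sums, Spearman correlations and motif counts (Python 3.11.15, pandas 2.3.3, NumPy 2.4.6, SciPy 1.17.1). Transcript lengths are the longest of GENCODE M21. The members and lists were chosen with earlier results of these data known. Named are members called in any table, the 20 core genes, and in each table the 5 largest changes in each direction at a mean FPKM of at least 1, plus called genes of the 3 lists outside the rule. Values of 2 members are not reported here singly, though counts, sums and medians include them. Positions are as listed in the tables, and whether they count from 0 or 1 is not stated.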

Additional observations from a re-analysis of the deposited data

How the results depend on the processing

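Calls were recounted at q limits of 0.01 and 0.1, with a mean FPKM of at least 1, without rows that share a position, and with an absolute log2 fold change of at least 0.5. Of 25 such counts 23 stayed within 1.5 times: 0 at 4 weeks and with Elk-1 AAV, 4 to 8 at 8 weeks and 5 to 9 under the control AAV. Many of these counts could not move. A count of 0 stays at 0 under any stricter limit, so at 4 weeks and with Elk-1 AAV only the q limit of 0.1 could change it. The FPKM limit removed no called member. The CHL2 count of 5 became 1 at a q below 0.01 and 2 with the fold limit, as fewer members meet a stricter limit. Of 30 recomputed medians 28 moved by less than 0.05. The exceptions used summed FPKM, which gave -0.0245 in CHL2 and -0.34 under the control AAV. The 54 recomputed directions of single members did not change, but they could not have come out otherwise. A pseudocount cannot turn the direction of a ratio, and the shift by centring was far smaller than any called change. The tables give 1 pooled value per group, so leaving out single libraries was not run, and spread between libraries limits every value to an unknown extent. No paired analysis was possible because the tables hold no value per library.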
